A study of Mus musculus with 25 samples.

Results

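Gonadal fat of mice fed a high-fat diet (HFD) for 12 weeks was compared with that of mice fed it for 4 weeks. The arrays were chosen by diet and time in their labels, which gave 4 arrays at 12 weeks and 3 at 4 weeks, 7 of the 25 arrays of the series. All mice were heterozygous males of the apoE3L.CETP strain, which carries the human ApoE3Leiden and CETP transgenes and was used here for diet-induced metabolic syndrome. The HFD held 60% fat, 20% carbohydrate, 20% protein and 0.25% cholesterol, and feeding began at 12 weeks of age. For setting beside it, the series holds 4 HFD arrays at 8 weeks and 4 arrays each at 12 and 4 weeks of a low-fat diet (LFD) of 10% fat, 70% carbohydrate and 20% protein. The labels give an age of 34 weeks for both 12-week groups and of 16 weeks for both 4-week groups (20 weeks at 8 weeks), so time on the diet and age cannot be told apart within a diet. The ages of 16 and 20 weeks match a start at 12 weeks of age, but 34 weeks is later than 12 weeks of feeding from that start would give, and the labels do not say which of these is right; groups are named here by their labelled weeks on the diet. The labels call the samples of a group biological replicates. Expression was read on Affymetrix Mouse Gene 2.0 ST arrays, and values are on the log2 scale.

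Visceral fat that expands under a high-fat diet is known to gather macrophages around large or dying adipocytes. Such lipid-associated macrophages take up lipid through surface receptors, break it down in lysosomes and carry markers such as Trem2, Gpnmb and Itgax (CD11c). The fat cells around them store triglyceride, make fatty acids from carbohydrate and burn branched-chain amino acids, and these programs are often lower in obese fat. In a piece of whole tissue, fewer cells of a type and less RNA per cell cannot be told apart.

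Transcripts of other tissues were present in some arrays of both groups. The mean of 33 hepatocyte genes was 9.24, 8.64, 4.66 and 8.93 in the HFD 12-week arrays 1 to 4, against 6.45, 4.95 and 4.79 in the HFD 4-week arrays 1 to 3. Alb, the serum albumin gene of hepatocytes, was at 13.09, 12.96, 6.45 and 13.07 at 12 weeks, against 11.40, 8.24 and 6.95 at 4 weeks. Liver transcripts were thus high in 3 of the 4 arrays at 12 weeks, array 3 was as low as the 4-week arrays 2 and 3, and 4-week array 1 lay between. Fgb (fibrinogen beta chain) had 10.57, 9.90, 4.56 and 10.36 at 12 weeks, against 7.57, 5.45 and 5.46 at 4 weeks. Apoa1, the main protein of high-density lipoprotein, had 8.72, 8.05, 4.09 and 8.60 at 12 weeks, against 6.41, 3.87 and 4.22 at 4 weeks. Over the 33 genes the median difference was 2.57, and none passed the test across all genes. Clec4f, a marker of liver-resident macrophages, was at 6.07, 6.18, 5.22 and 6.14 at 12 weeks, against 5.52, 5.03 and 5.29 at 4 weeks. Timd4, another of the 5 liver macrophage genes listed, did not follow, at 5.33, 5.61, 5.94 and 5.91 against 5.80, 5.65 and 5.92. The mean of the 5 was 5.57, 5.72, 5.18 and 5.62 at 12 weeks, against 5.08, 5.04 and 4.98 at 4 weeks. Xist, the RNA made from the inactive X chromosome of females, was at 5.37, 5.03, 3.86 and 5.36 at 12 weeks and at 3.61, 3.70 and 3.36 at 4 weeks. It followed the liver transcripts throughout the series, at 5.03 to 6.76 in the 11 arrays with a hepatocyte mean above 8 and at 3.36 to 3.92 in the other 14 arrays, all labelled male. Cyp2b9, a liver gene known to be higher in female mice, also went with them, at 6.66, 6.11, 4.14 and 6.66 at 12 weeks against 3.38, 3.48 and 3.87 at 4 weeks. Liver genes known to be higher in male mice followed the same arrays: the mean of 11 such genes was 6.94, 6.51, 4.49 and 6.73 at 12 weeks, against 5.84, 5.02 and 4.84 at 4 weeks, with a median difference of 0.89 without the terms described below, beside 0.30 for 9 liver genes higher in females. Eif2s3y, a gene of the Y chromosome, was present in every array, at 8.37 to 9.05 in the 11 arrays high in hepatocyte genes and at 8.53 to 9.31 in the other 14.

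The second foreign tissue was confined to a single array of the comparison. Gpx5, a glutathione peroxidase secreted by the epididymis, was at 3.20, 3.58, 3.52 and 3.62 in the HFD 12-week arrays, against 13.21, 3.71 and 3.38 at 4 weeks. The mean of 17 epididymis genes was 3.76, 3.72, 3.62 and 3.79 at 12 weeks and 9.99, 3.82 and 3.79 at 4 weeks, and Lcn8 and Adam7 showed the same split. Array 3 at 12 weeks and arrays 2 and 3 at 4 weeks therefore had low levels of both foreign tissues. Fat cell markers were present in every array: Adipoq (adiponectin) was at 11.18, 11.58, 11.40 and 11.44 at 12 weeks, against 11.59, 11.70 and 11.60 at 4 weeks. Over the 7 arrays the mean of the spermatid list lay between 5.51 and 5.87, that of the pancreatic acinar list between 3.90 and 4.31, and that of the skeletal muscle list between 4.93 and 5.18. The mean of the mesothelium list was 6.60 to 8.31 at 12 weeks and 7.98 to 8.21 at 4 weeks.

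**Figure D1:**
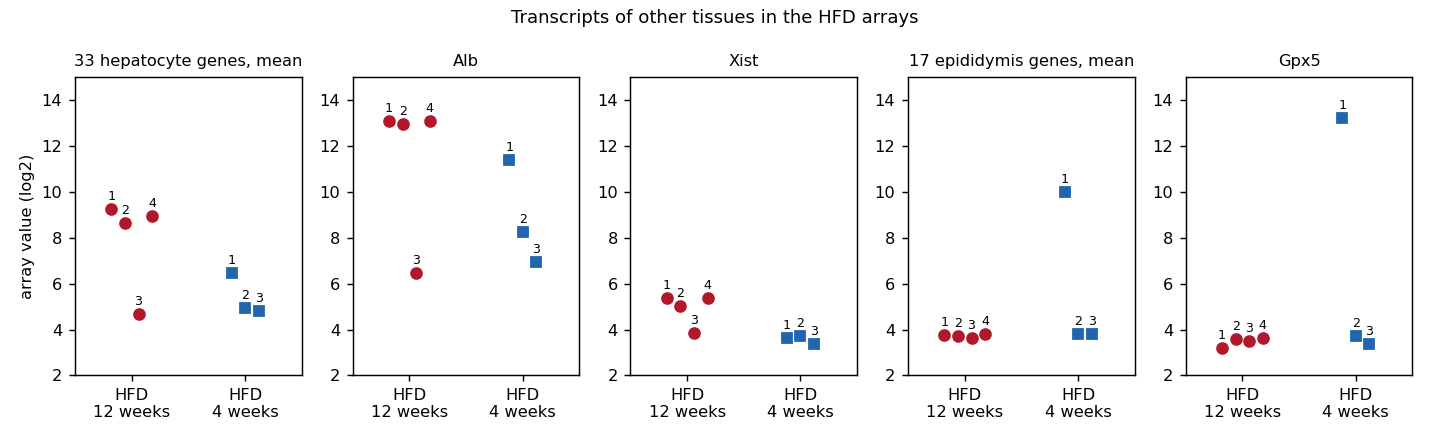
Array values (log2) of liver and epididymis transcripts and Xist in the HFD 12-week arrays (circles, left) and the HFD 4-week arrays (squares, right), 1 point per array with its number. Liver transcripts and Xist are high in 12-week arrays 1, 2 and 4 and low in array 3, and epididymis transcripts are high only in 4-week array 1.

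To account for these tissues, 2 fits were made over 22180 genes with limma. One compared the group means as they stand, and the other also held the hepatocyte mean and the epididymis mean of each array as terms. A gene was called at a Benjamini-Hochberg adjusted p under 0.05 over all genes. The fit without the terms called 127 genes, 0.573% of those tested, 86 higher at 12 weeks (0.388%) and 41 lower (0.185%). With the terms 322 were called, 1.45%, 222 higher (1%) and 100 lower (0.451%). Below, a gene "rose" or "fell" if both fits called it in that direction and no array of one group lay within the range of the other, which held for 103 genes or 0.464%, 74 of them higher (0.334%) and 29 lower (0.131%). Centring each array on its median gave 43 higher and 41 lower without the terms and 39 higher and 34 lower for both fits together, and quantile normalization gave 178 higher and 127 lower with the terms. Without 4-week arrays 1 to 3 the fit without the terms called 13, 4 and 91 genes, and without 12-week arrays 1 to 4 it called 22, 175, 17 and 39. With the terms these counts were 204, 49 and 535, and 185, 407, 62 and 227. The count of 103 moved likewise: it was 4 without 4-week array 2, 13 without 4-week array 1, 77 without 4-week array 3, and 22, 153, 13 and 37 without 12-week arrays 1 to 4. It was 76 without the 3 arrays of the series with epididymis transcripts. Without the 11 arrays with liver transcripts, or without arrays with either tissue, array 3 alone stood for 12 weeks. It was then assumed to vary like the other groups, and few arrays were left to estimate the spread and the terms. Counts of calls in those 2 settings therefore cannot show whether a change was absent. Median differences of gene lists are given for them below. Fitted on the 7 compared arrays alone, 5 genes were called without the terms, 26 with them and 3 in both fits without overlap.

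Of the 74 genes that rose, 12 belonged to the gene lists used here other than that of Toll-like receptors. Gpnmb, a transmembrane glycoprotein of lipid-laden macrophages, had the largest rise, to 11.86, 10.07, 11.34 and 11.02 at 12 weeks, against 8.08, 8.06 and 8.95 at 4 weeks. The difference was 2.71 ± 0.59 (standard error) without the terms (adjusted p = 0.0386 with limma), a 6.54-fold rise. With the terms it was 3.29 ± 0.64 (adjusted p = 0.0121 with limma), a 9.79-fold rise. Array 3, low in liver transcripts, was second highest and stood 2.84 above the mean of 4-week arrays 2 and 3. Trem2, a lipid-sensing receptor of these macrophages, lay between 8.10 and 9.35 in the 12-week arrays and between 6.64 and 7.05 in the 4-week arrays, and array 3 was its second highest. It rose by 1.87 ± 0.40 without the terms and by 2.30 ± 0.42 with them (adjusted p = 0.0368 and 0.0082 with limma). Itgax, the integrin chain CD11c, was at 8.92, 7.95, 9.52 and 8.46 at 12 weeks and at 7.02, 7.02 and 7.38 at 4 weeks, with array 3 the highest and a rise of 1.88 ± 0.34 with the terms (adjusted p = 0.0082 with limma).

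Over the list of lipid-associated macrophage genes, 4 of 17 rose (Gpnmb, Trem2, Itgax and Lipa), and 8 of 17 were called higher with the terms and none lower. The median difference was 1.01 without and 1.07 with the terms, beside 0.004 and 0.005 over all genes. The other 4 called with the terms were named after their values were seen. Atp6v0d2, a subunit of the lysosomal proton pump, was at 10.18, 8.27, 9.51 and 9.10 at 12 weeks, against 6.91, 5.78 and 6.95 at 4 weeks, a difference of 2.72 ± 0.72 without the terms (adjusted p = 0.0921 with limma) and 3.79 ± 0.67 with them (adjusted p = 0.00643). Dcstamp, needed for macrophage fusion, differed by 1.42 ± 0.20 with the terms, Tm4sf19 by 2.55 ± 0.53 and Cd63 by 0.83. Lpl, which adipocytes also make in large amounts, differed by -0.14 ± 0.12 with the terms and Ctsd, a lysosomal protease, by -0.03 ± 0.19, and neither passed the test. With each of the 7 arrays left out in turn, 1 to 10 of the 17 were called with the terms, 1 without 4-week array 2 and 3 without 12-week array 3. Without the terms it was 0 to 4: 0 without 4-week array 1, 4-week array 2 or 12-week array 3, 1 without 4-week array 3 or 12-week array 1, and 2 without 12-week array 4. Fitted on the 7 compared arrays alone, 0 of 17 were called in either fit. Without arrays with liver transcripts, array 3 alone at 12 weeks gave a median difference of 1.04 without and 0.81 with the terms. Without arrays with either foreign tissue it gave 0.98 and 1.3.

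In the list of general macrophage genes 2 of 22 rose. These were Mpeg1 (a pore-forming protein of phagocytes) and Ctss (cathepsin S, a lysosomal protease), and Cd68 was called in the fit with the terms alone. Mpeg1 was at 10.28, 9.11, 10.04 and 9.73 at 12 weeks, against 8.30, 8.26 and 8.73 at 4 weeks, with a difference of 1.36 ± 0.25 without the terms (adjusted p = 0.0224 with limma) and 1.26 ± 0.28 with them (adjusted p = 0.0239). Adgre1, a classical macrophage marker, was at 9.46, 8.78, 9.45 and 8.96 against 8.44, 8.24 and 8.63, all 12-week arrays above all 4-week arrays, but its difference of 0.77 ± 0.25 did not pass (adjusted p = 0.13 with limma). In 17 of the 22 all 12-week arrays lay above all 4-week arrays, which held for 6.68% of all genes, and the median difference was 0.73 without and 0.69 with the terms. The list's mean was 9.32, 8.70, 9.22 and 9.01 at 12 weeks and 8.31, 8.36 and 8.58 at 4 weeks. Array 3, with Clec4f at 5.22, was thus within the range of the other 12-week arrays. Without single arrays, 0 to 5 of the 22 were called without the terms, 0 without any of 12-week arrays 1 and 3 and 4-week arrays 1 and 2, 1 without 12-week array 4 or 4-week array 3, and 5 without 12-week array 2. With the terms it was 0 to 5, 0 without 4-week array 2 or 12-week array 3 and 5 without 12-week array 2. Neither fit called any of the 22 on the 7 compared arrays alone. With the terms 12 were called without arrays with epididymis transcripts. Without arrays with liver transcripts, array 3 alone at 12 weeks gave a median difference of 0.86 without and 0.8 with the terms. Without arrays with either tissue it gave 0.79 and 1.09. In the list of macrophages that reside around vessels (12 genes) none was called, and the median was -0.05 without and -0.21 with the terms. Cx3cr1, a chemokine receptor in the macrophage list, was at 6.42, 6.07, 6.28 and 6.08 at 12 weeks, against 6.55, 6.49 and 6.77 at 4 weeks, and did not pass the test (difference -0.26 ± 0.17 with the terms, adjusted p = 0.513 with limma).

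**Figure D2:**
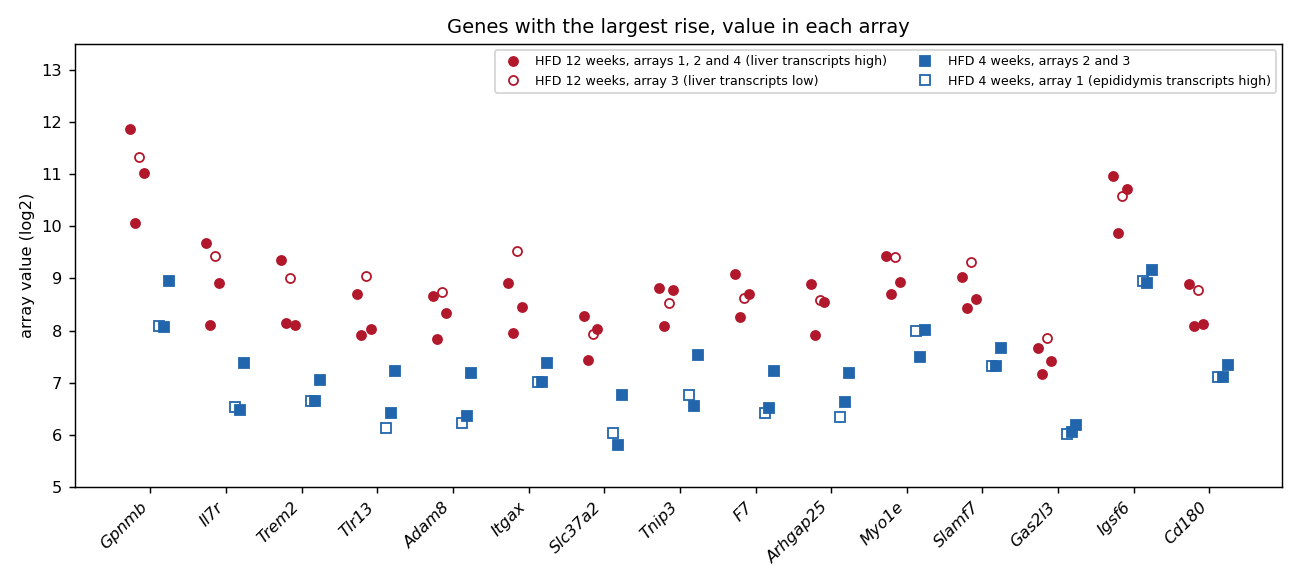
Array values (log2) of the 15 named genes with the largest rise, HFD 12-week arrays as circles and HFD 4-week arrays as squares. By the choice of genes, all 12-week arrays lie above all 4-week arrays. The open circle, array 3 with low liver transcripts, lies among or above the other 12-week arrays.

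Several receptors of the innate immune system were among the genes that rose. Tlr13, which senses bacterial ribosomal RNA in mouse endosomes, was at 8.70, 7.92, 9.05 and 8.03 at 12 weeks, against 6.13, 6.42 and 7.23 at 4 weeks. Its difference was 1.83 ± 0.35 without the terms (adjusted p = 0.0253 with limma) and 2.21 ± 0.35 with them (adjusted p = 0.00357), and the fit with the terms called it without each of the 7 arrays in turn. Of the 12 Toll-like receptor genes measured, a list added after the values were seen, 4 rose, and all 4 code for receptors of nucleic acids in endosomes. Tlr7, a sensor of single-stranded RNA, was at 7.51, 6.90, 7.54 and 7.14 at 12 weeks and at 6.18, 6.12 and 6.36 at 4 weeks. Tlr8, its close relative, was at 9.25, 8.23, 9.26 and 8.91 at 12 weeks and at 7.44, 7.34 and 7.75 at 4 weeks. Tlr9, a sensor of unmethylated DNA, was at 6.83, 6.84, 7.19 and 6.70 at 12 weeks and at 5.99, 6.31 and 6.49 at 4 weeks. For all 3 the groups did not overlap and array 3 was the highest, with differences of 1.16 ± 0.21, 1.33 ± 0.30 and 0.67 ± 0.12 with the terms.

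Of the other 8 Toll-like receptor genes 1 was called, in the fit with the terms alone. Tlr3, the endosomal sensor of double-stranded RNA, differed by 0.28 ± 0.13 with the terms (adjusted p = 0.346 with limma). Of the receptors at the cell surface, this was Tlr1 (0.85 ± 0.20, adjusted p = 0.0318 with limma), while Tlr2 differed by 0.05 ± 0.16, Tlr4, the endotoxin receptor, by 0.01 ± 0.23, Tlr5, the flagellin receptor, by 0.40 ± 0.27 and Tlr6 by 0.38 ± 0.25. Cd180, a relative of Tlr4 without a signalling tail, rose by 1.53 ± 0.28 with the terms (adjusted p = 0.0082 with limma). The remaining genes of the list, Tlr11 and Tlr12, were called in neither fit. Whether the endosomal and the surface receptors differed was not tested. Without single arrays, 1 to 4 of the 12 were called with the terms, the 1 without 4-week array 2, 2 without 12-week array 3 and 3 without 12-week array 1. Without the terms 0 to 4 were called, 0 without 4-week array 1 or 2 or 12-week array 1 or 3, and 2 without 4-week array 3 or 12-week array 4. Neither fit called any on the 7 compared arrays alone. With quantile normalization 1 was called without the terms and 3 with them, and with median centring 1 and 5. Without arrays with liver transcripts, array 3 alone at 12 weeks gave a median difference of 0.58 without and 0.5 with the terms. Without arrays with either tissue it gave 0.55 and 0.73.

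**Figure D3:**
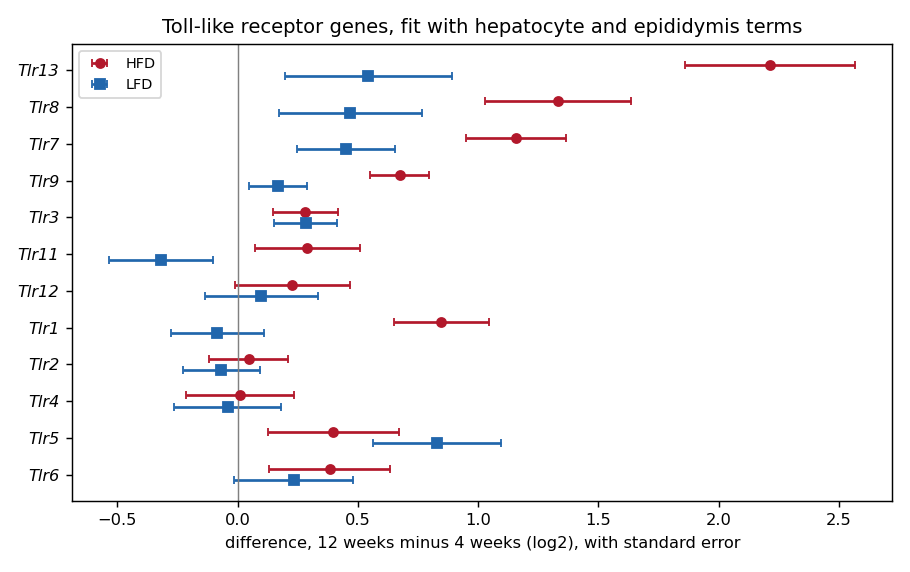
Difference between 12 and 4 weeks (log2, with standard error) of the 12 Toll-like receptor genes under HFD (circles) and LFD (squares), from the fit with hepatocyte and epididymis terms. Tlr13, Tlr8, Tlr7, Tlr9 and Tlr1 passed the test under HFD, and no Toll-like receptor gene passed it under LFD.

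Other surface and signalling genes rose with them. Il7r, the interleukin-7 receptor chain, was at 9.69, 8.10, 9.44 and 8.92 at 12 weeks, against 6.53, 6.48 and 7.37 at 4 weeks. Its difference of 2.52 ± 0.47 with the terms was second after Gpnmb among the 74 genes that rose (adjusted p = 0.00832 with limma). It was the 1 gene of 29 in the cytokine and chemokine list that rose, and Il1rn, the interleukin-1 antagonist, was called with the terms alone (1.09 ± 0.26). Ccl2, the main monocyte chemokine, was at 8.79, 8.07, 7.53 and 7.76 at 12 weeks and at 7.15, 7.28 and 8.93 at 4 weeks, so the groups overlapped. Adam8, a membrane metalloprotease of leukocytes, rose to 8.66, 7.83, 8.74 and 8.33, against 6.23, 6.37 and 7.18 at 4 weeks, the 1 of 19 matrix protease genes to do so. Slamf7, a receptor of leukocytes, was at 9.03, 8.44, 9.31 and 8.60 at 12 weeks and at 7.32, 7.32 and 7.66 at 4 weeks (1.61 ± 0.24 with the terms, adjusted p = 0.00274 with limma).

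Slc37a2, a sugar-phosphate transporter found in macrophages, rose by 1.83 ± 0.37 with the terms, and Tnip3, which restrains NF-kB signalling, by 1.73 ± 0.36. Arhgap25, a Rac regulator of leukocytes, rose by 1.71 ± 0.35 and Igsf6, an immunoglobulin-superfamily protein, by 1.59 ± 0.32. Myo1e, a class I myosin of the cell cortex, rose 3.24-fold with the terms (adjusted p = 0.00389 with limma). Gas2l3, a linker of actin and microtubules, rose by 1.60 ± 0.25. Of these 15 genes with the largest rise, Tlr13, Slamf7, Myo1e and Gas2l3 were called with the terms whichever single array was left out. F7, coagulation factor VII, is known as a liver product. It was at 9.08, 8.27, 8.62 and 8.71 at 12 weeks, against 6.42, 6.52 and 7.23 at 4 weeks, and array 3 had Alb at 6.45. With single arrays left out in turn, F7 was called in 2 of 7 fits with the terms and in 3 of 7 without them. The source of the F7 transcripts was not tested. Over all 74 genes that rose, array 1, with the highest hepatocyte mean of the 12-week arrays, was the highest in 32, array 3 in 31, array 4 in 8 and array 2 in 3, and array 3 was the lowest in 3. A rise required array 3 to lie above every 4-week array, so its difference from them was positive by the choice of genes. The median difference of array 3 from 4-week arrays 2 and 3 was 1.28. In the fits without arrays with liver or epididymis transcripts, these 3 arrays made up the comparison and the other groups gave the spread. For 67 of the 74 the fitted slope on the hepatocyte mean within groups was negative. No gene that rose was called without the terms in all 7 leave-outs.

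In the lysosome list 4 of 26 genes rose, and 7 were called with the terms, with a median difference of 0.36 without and 0.38 with them. Ctss was at 12.21, 10.87, 11.76 and 11.65 at 12 weeks, against 10.19, 10.06 and 10.49 at 4 weeks. Lipa, the acid lipase that frees cholesterol and fatty acids from ingested lipid, was at 11.59, 11.04, 11.77 and 11.43, against 10.24, 10.28 and 10.40 at 4 weeks, with a difference of 1.11 ± 0.21 with the terms (adjusted p = 0.0104 with limma). Gla, alpha-galactosidase A, rose by 1.18 ± 0.23 and Ctsz, cathepsin Z, by 0.65 ± 0.16. With single arrays left out, 0 to 7 of the 26 were called with the terms: 0 without 4-week array 2, 1 without 12-week array 3, and 3 without 12-week array 1 or 4. Without the terms it was 0 to 5: 0 without 4-week array 1 or 2 or 12-week array 3, 1 without 12-week array 1 or 4, and 2 without 4-week array 3. Neither fit called any of the 26 on the 7 compared arrays alone. Without arrays with liver transcripts, array 3 alone at 12 weeks gave a median difference of 0.5 without and 0.37 with the terms. Without arrays with either foreign tissue it gave 0.46 and 0.35. Abcg1, a cholesterol exporter, was the 1 of 10 efflux genes called, in the fit with the terms alone: 8.58, 8.60, 8.94 and 8.40 at 12 weeks, against 7.74, 7.85 and 8.08 at 4 weeks.

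Starts of some of these genes are shown because the genes rose together in 1 tissue. RefSeq promoter sequences (build GRCm38.p6, 250 bases before to 50 after the annotated start) were matched for 61 of the 74 genes that rose and for 16990 genes in all. The letters GAGGAAGT, the core bound by the myeloid factor PU.1, were found on either strand in 8 of 61 (13.1%), beside 3.44% of all promoters. The letters TGAGTCA, the site of AP-1 factors, were found in 9 of 61 (14.8%), beside 5.54% of all. Among the 8 other strings searched, GGAAGT, which lies within the PU.1 string, was in 36.1% beside 27.6%, TTTCCTG in 16.4% beside 10.6%, and TCACATG in 8.2% beside 3.9%. CACGTG was in 6.56% beside 9.19%, CACATG, which lies within TCACATG, in 13.1% beside 13.3%, GTCATGTG in 1.64% beside 1.02%, GGGGCGG in 34.4% beside 33.8%, and ATTGCGCAA in none beside 0.053%. A match describes the letters and was not tested. The windows of Gpnmb (chr6:49036268-49036567, plus strand), Itgax (chr7:128129300-128129599, plus strand), Ctss (chr3:95526536-95526835, plus strand) and Tlr9 (chr9:106222348-106222647, plus strand) follow, with both strings in capitals in either orientation. Gpnmb and Itgax hold the AP-1 string, Ctss the PU.1 string, and Tlr9 both.
Gpnmb: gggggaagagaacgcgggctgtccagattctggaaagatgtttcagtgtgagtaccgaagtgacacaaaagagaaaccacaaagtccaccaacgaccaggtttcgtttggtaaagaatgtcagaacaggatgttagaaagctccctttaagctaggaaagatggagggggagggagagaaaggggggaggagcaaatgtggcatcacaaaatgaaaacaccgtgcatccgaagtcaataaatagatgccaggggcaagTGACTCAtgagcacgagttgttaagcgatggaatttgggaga
Itgax: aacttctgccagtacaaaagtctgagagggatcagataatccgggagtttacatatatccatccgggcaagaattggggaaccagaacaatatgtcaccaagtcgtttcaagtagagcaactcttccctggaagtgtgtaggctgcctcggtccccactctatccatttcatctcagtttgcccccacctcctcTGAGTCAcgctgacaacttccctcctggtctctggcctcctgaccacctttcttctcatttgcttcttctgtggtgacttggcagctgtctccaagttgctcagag
Ctss: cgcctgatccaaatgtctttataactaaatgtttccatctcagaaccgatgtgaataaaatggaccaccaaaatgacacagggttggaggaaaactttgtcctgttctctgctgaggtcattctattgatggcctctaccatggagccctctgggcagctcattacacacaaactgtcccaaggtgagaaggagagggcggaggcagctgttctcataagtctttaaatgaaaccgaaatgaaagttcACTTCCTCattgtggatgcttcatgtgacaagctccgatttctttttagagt
Tlr9: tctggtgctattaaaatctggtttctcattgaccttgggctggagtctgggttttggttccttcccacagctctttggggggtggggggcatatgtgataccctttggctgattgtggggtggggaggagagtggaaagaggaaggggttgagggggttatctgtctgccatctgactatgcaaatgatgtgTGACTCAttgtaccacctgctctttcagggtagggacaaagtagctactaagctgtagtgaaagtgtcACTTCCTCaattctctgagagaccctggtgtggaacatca

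Genes of other leukocytes gave few calls. Klrk1, the receptor NKG2D of natural killer and T cells, was at 5.85, 5.60, 6.55 and 5.77 at 12 weeks, against 5.03, 5.09 and 5.16 at 4 weeks, and rose by 0.97 ± 0.18 with the terms (adjusted p = 0.00852 with limma), alone among 10 natural killer genes. Prf1, the perforin of killer cells, moved the other way, at 5.66, 5.46, 5.31 and 5.32 at 12 weeks against 6.10, 6.43 and 5.69 at 4 weeks, and was called without the terms (-0.64 ± 0.14, adjusted p = 0.0466 with limma) but not with them (adjusted p = 0.0563). None of 16 T cell, 14 B and plasma cell, 10 neutrophil or 12 mast cell and eosinophil genes was called in either fit, with medians of 0.42, 0.04, 0.16 and -0.03 with the terms. The mean of the T cell list was 5.39, 5.27, 5.82 and 5.36 at 12 weeks, against 5.09, 5.07 and 5.15 at 4 weeks, highest in array 3, which is low in liver transcripts. In the dendritic cell list 2 of 8 were called with the terms alone, among them Ccr7, the homing receptor for lymph nodes (1.19 ± 0.24). Ifi30, a thiol reductase of antigen processing, was the 1 of 11 genes of class II presentation called, with the terms alone: 10.07, 9.26, 10.02 and 9.60 at 12 weeks and 8.64, 8.55 and 8.81 at 4 weeks. Mdm2, the p53 inhibitor, rose from the list of 11 p53 targets (0.63 ± 0.14 with the terms).

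**Figure D4:**
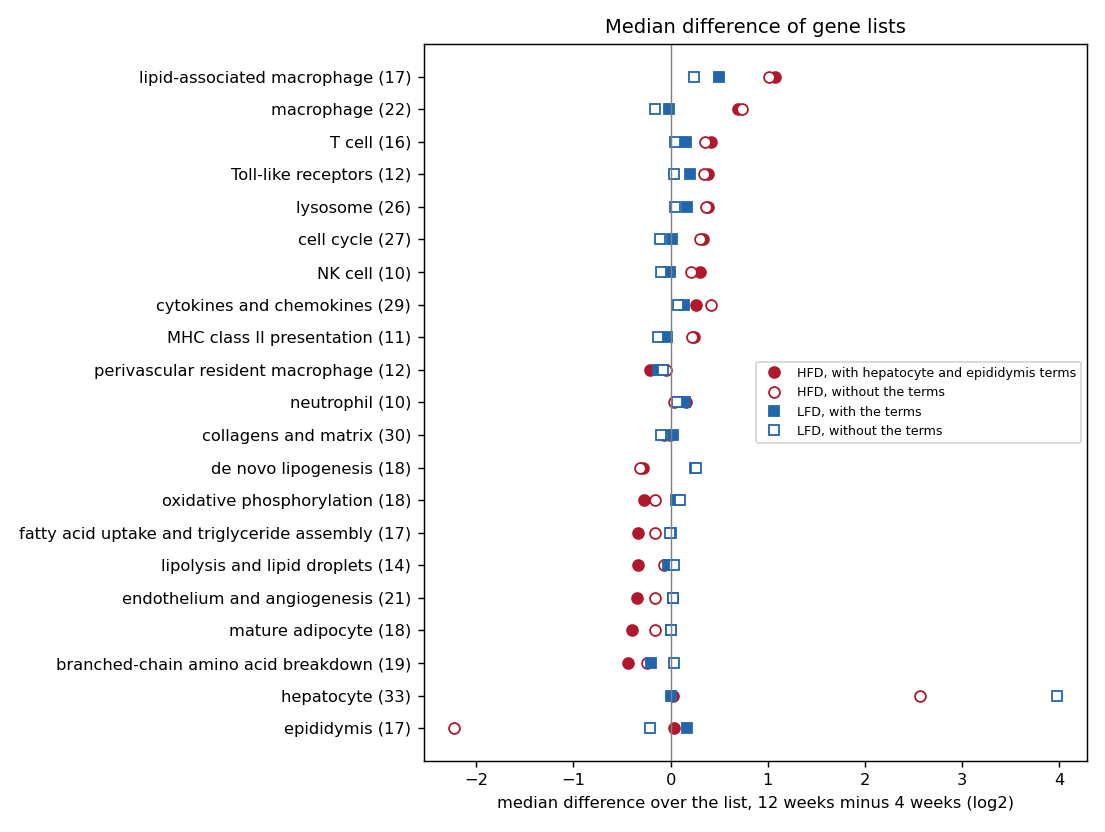
Median difference between 12 and 4 weeks (log2) of 21 gene lists, with the number of genes measured in parentheses, under HFD (circles) and LFD (squares), from the fits with the hepatocyte and epididymis terms (filled) and without them (open). The lipid-associated macrophage and macrophage lists have HFD medians of 1.07 and 0.69 with the terms, and the mature adipocyte and branched-chain amino acid lists of -0.40 and -0.44. The hepatocyte and epididymis lists, which make up the terms, have HFD medians of 0.02 and 0.04 with them, against 2.57 and -2.23 without them.

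Of 18 mature adipocyte genes none was called in either fit, with a median of -0.16 without and -0.40 with the terms. With the terms 16 of the 18 differences were below 0. In 4 of the 18 all 12-week arrays lay below all 4-week arrays, which held for 5.09% of all genes, and in 1 they lay above. Retn (resistin) was at 13.35, 13.61, 13.42 and 13.53 at 12 weeks, against 13.70, 13.85 and 13.68 at 4 weeks. Its difference of -0.44 ± 0.12 with the terms did not pass (adjusted p = 0.0651 with limma). Lep (leptin) was at 13.08, 13.26, 12.98 and 13.13 at 12 weeks and at 13.09, 12.91 and 13.36 at 4 weeks, so the groups overlapped. Pparg, the master regulator of fat cells, was at 10.77, 10.77, 10.63 and 10.72 at 12 weeks and at 10.78, 10.56 and 10.94 at 4 weeks, which also overlapped. Cebpa, which acts with Pparg, was called lower with the terms alone (-0.64 ± 0.16, adjusted p = 0.0496 with limma). Plagl1, an imprinted transcription factor in the adipocyte expansion list, was likewise called lower with the terms alone, at 7.05, 8.37, 7.74 and 7.91 at 12 weeks against 8.51, 9.22 and 8.71 at 4 weeks. Mest, another imprinted gene of that list, was at 11.91, 11.98, 11.97 and 11.92 against 11.51, 11.31 and 11.84 and did not pass the test.

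In de novo lipogenesis, none of 18 genes was called, and the median was -0.32 without and -0.28 with the terms. Fasn, fatty acid synthase, was at 12.29, 12.35, 12.59 and 12.20 at 12 weeks, against 12.87, 12.89 and 12.77 at 4 weeks, without overlap but with a difference of only -0.49 ± 0.24 without the terms (adjusted p = 0.456 with limma). Acaca, which supplies its substrate, was at 9.51, 9.82, 9.90 and 9.69 against 10.39, 10.63 and 10.08. In 7 of the 18 all 12-week arrays lay below all 4-week arrays, which held for 5.09% of all genes. Breakdown of branched-chain amino acids gave 3 calls of 19, all lower and all with the terms alone. Bcat2, the first enzyme of the pathway, was at 7.92, 8.05, 7.97 and 8.02 at 12 weeks, against 8.26, 8.75 and 8.48 at 4 weeks (-0.86 ± 0.18 with the terms, adjusted p = 0.0191 with limma). Bckdhb, of the dehydrogenase complex, differed by -0.69 ± 0.16 and Mccc2, of the leucine branch, by -0.88 ± 0.19. With the terms 18 of the 19 differences were below 0, with a median of -0.44, against -0.24 without them, and many of these enzymes are also made in liver. The mean of the list was 8.82, 9.02, 8.86 and 8.97 at 12 weeks, against 9.03, 9.24 and 9.01 at 4 weeks, so array 3, low in liver transcripts, was below all 4-week arrays. None of 18 genes of oxidative phosphorylation was called (median -0.27 with the terms), and Echs1 was the 1 of 19 fatty acid oxidation genes called, lower with the terms alone (-0.64 ± 0.14).

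Matrix and proliferation genes did not pass the test. None of 30 collagen and matrix genes was called in either fit, and the median was -0.01 without and -0.07 with the terms. Col1a1, the main fibrillar collagen chain, was at 10.54, 10.07, 10.51 and 10.34 at 12 weeks, against 10.26, 10.21 and 10.49 at 4 weeks. Of 27 cell cycle genes none was called, with a median of 0.30 without and 0.33 with the terms. Mki67, a marker of dividing cells, was at 8.25, 7.83, 8.41 and 8.29 at 12 weeks and at 7.50, 7.66 and 7.76 at 4 weeks, without overlap, with a difference of 0.51 ± 0.27 with the terms (adjusted p = 0.418 with limma). Among 10 thermogenesis genes Otop1, a proton channel of fat cells, was called higher with the terms alone (1.39 ± 0.32). Neither the endothelium list (21 genes) nor the insulin signalling list (18) gave a call, with medians of -0.35 and -0.15 with the terms.

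The 29 genes that fell were of other kinds, and none belonged to a list used here. They included 9 miRNA genes and 6 olfactory or vomeronasal receptor genes. Those 6 were 0.43% of the 1394 such receptor genes measured, beside 0.131% of all genes. The median level of that family was 2.99, beside 5.76 for all genes. Of the 29, 18 had a mean below the median of all clusters, 5.14. Cytl1, a small secreted protein, fell to 6.32, 6.24, 6.34 and 6.24 at 12 weeks, against 7.24, 7.81 and 7.30 at 4 weeks. The difference was -1.17 ± 0.16 without the terms (adjusted p = 0.00167 with limma) and -1.29 ± 0.16 with them (adjusted p = 5.43e-04), and both fits called it without each of the 7 arrays in turn. At 8 weeks, set against the same 4-week arrays, it was already 1.11 lower with the terms (adjusted p = 0.0316 with limma), at 6.32, 6.75, 6.50 and 6.27. S100a1, a calcium-binding protein, was at 8.44, 9.17, 9.02 and 8.41 at 12 weeks and at 9.77, 10.40 and 9.75 at 4 weeks, a fall of 1.42 ± 0.24 with the terms (adjusted p = 0.0048 with limma). Rhbdl1, a rhomboid protease, was at 6.36, 7.90, 7.48 and 7.35 at 12 weeks and at 8.32, 8.74 and 8.56 at 4 weeks, with array 1 lower than the rest.

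Ifitm2, an interferon-induced membrane protein that blocks virus entry, was at 8.20, 8.36, 8.67 and 8.16 at 12 weeks, against 9.07, 9.30 and 9.46 at 4 weeks, and fell by 0.97 ± 0.17 with the terms. Pcgf1, a Polycomb protein, fell by 0.82 ± 0.19 with the terms, and Dxo, a decapping exonuclease, by 0.56 ± 0.14. The other named genes had low 12-week means, of 4.34 or less. Among them Th, tyrosine hydroxylase of catecholamine synthesis, fell by 0.68 ± 0.14 with the terms, with a 12-week mean of 4.33. The rest fell by 0.71 to 1.24 with the terms: Oog1, an oocyte gene, the hair keratins Krt71 and Krt73, the class I-like gene H2-M10.2 and the claudin gene Cldn34b2.

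The miRNA genes are shown because they made up 9 of 29 falls, 1.86% of the 484 miRNA genes measured, beside 0.131% of all genes. They were named after their values were seen, the array reads the precursor transcript and cannot tell the mature arms apart, and 2 other miRNA genes rose. Mature sequences from RefSeq (build GRCm38.p6), found for 8 of these 11 genes, are given for the genes whose 4-week mean was above the median cluster, with the seed (bases 2 to 8) in capitals.
miR-3471: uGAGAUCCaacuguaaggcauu
miR-9-5p: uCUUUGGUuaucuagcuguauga
miR-9-3p: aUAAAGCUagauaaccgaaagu
miR-301b-5p: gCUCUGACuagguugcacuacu
miR-375-5p: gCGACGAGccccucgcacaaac
miR-210-3p: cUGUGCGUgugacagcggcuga
miR-210-5p: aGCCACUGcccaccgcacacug
These lie at chr4:10845585-10845606 (minus strand), chr3:88215613-88215635 and chr3:88215652-88215673 (plus), chr16:17124456-17124477 (minus), chr1:74900696-74900717 (minus), and chr7:141221407-141221428 and chr7:141221445-141221466 (minus). No seed is shared among them.

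Mir3471-1 was at 3.56, 3.05, 3.42 and 3.17 at 12 weeks, against 5.51, 5.49 and 5.08 at 4 weeks, and fell by 2.08 ± 0.28 with the terms (adjusted p = 9.18e-04 with limma). Mir301b was at 4.61, 4.54, 4.07 and 4.46 at 12 weeks and at 6.05, 5.67 and 5.49 at 4 weeks. Both were called in both fits without each of the 7 arrays in turn. Mir210, induced by low oxygen in many cells, was at 6.93, 6.46, 6.33 and 6.50 at 12 weeks, against 7.38, 7.80 and 6.96 at 4 weeks, with the groups barely apart. Mir9-1, one of the genes for miR-9 of the nervous system, was at 4.34, 3.82, 3.48 and 4.20 against 5.23, 5.37 and 5.08. In none of these did the groups overlap. Mir375, known from pancreatic islets, was at 5.79, 4.86, 4.51 and 5.53 against 6.27, 6.50 and 6.03. Mir467c was at 6.85, 6.38, 5.61 and 6.28 against 8.06, 8.57 and 7.86. At 8 weeks Mir467c was still at 8.57, 8.17, 8.68 and 8.27.

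**Figure D5:**
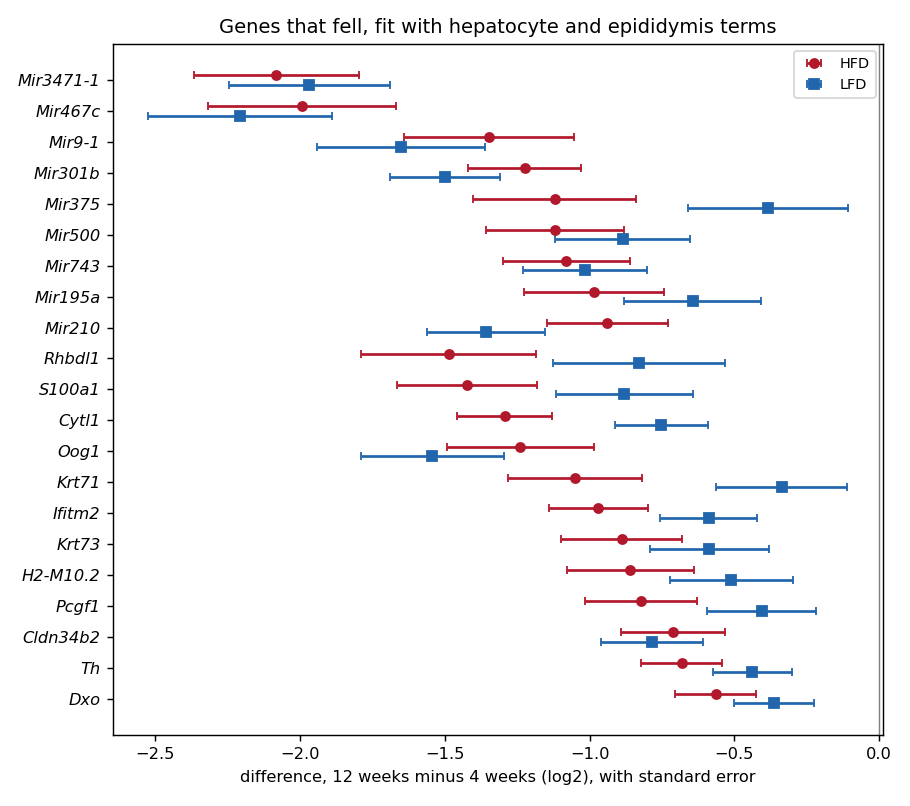
Difference between 12 and 4 weeks (log2, with standard error) of the miRNA genes and of the 12 named genes that fell, under HFD (circles) and LFD (squares), from the fit with hepatocyte and epididymis terms. All HFD and all LFD estimates lie below 0.

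The LFD mice had the same times and ages, and 3 of the 4 LFD 12-week arrays had high liver transcripts, against none of the 4 LFD 4-week arrays. LFD 4-week array 1 had epididymis transcripts, with Gpx5 at 9.13 and an epididymis mean of 5.42, and had Alb at 11.64. The LFD 12-week against 4-week comparison called 151 genes without the terms (0.681%) and 26 with them (0.117%). For the 74 genes that rose under HFD, the median LFD difference was 0.20 without the terms, and 5 were called. With the terms it was 0.43, 3 were called, and 69 were above 0. Both diets share 1 fitted slope on the hepatocyte mean, negative for 67 of the 74, so the terms raise HFD and LFD estimates of these genes together. For the 29 that fell, the median LFD difference was -0.75 without the terms, and 15 were called. With the terms it was -0.88, all 29 were below 0, and 10 were called. Gpnmb averaged 7.94 ± 0.59 at 12 weeks and 7.29 ± 0.67 at 4 weeks of LFD (SD, n = 4 each), a difference of 1.23 ± 0.63 with the terms (adjusted p = 0.433 with limma). Trem2 averaged 6.42 ± 0.37 and 6.48 ± 0.28 there, and the lipid-associated macrophage list had a median LFD difference of 0.50 with the terms, against 1.07 under HFD. For the macrophage list it was -0.02, against 0.69 under HFD. Mir301b and Mir3471-1 differed by -1.53 ± 0.16 and -1.88 ± 0.23 under LFD without the terms, both past the test (adjusted p = 5e-05 and 4.07e-04 with limma).

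Whether the 2 diets differed in their change was tested directly. The HFD change minus the LFD change gave 0 calls of 22180 genes (0%) with limma, with or without the terms, and 1236 genes had an unadjusted p under 0.05 without them. Gpnmb had a difference between the changes of 2.06 ± 0.81 (adjusted p = 0.818), Tlr13 of 1.86 ± 0.48 and Trem2 of 1.93 ± 0.54 (both adjusted p = 0.723). Slamf7 had 1.49 ± 0.36 (adjusted p = 0.637), so a rise particular to HFD was not shown for any of them. The smallest p belonged to Col6a5, a collagen VI chain named after its values were seen. Its HFD arrays had 9.82, 8.81, 8.97 and 9.96 at 12 weeks and 8.31, 8.09 and 8.58 at 4 weeks, while LFD mice averaged 7.92 ± 0.27 at 12 weeks and 9.51 ± 0.62 at 4 weeks (SD, n = 4 each). The changes differed by 2.65 ± 0.47, which did not pass over all genes (adjusted p = 0.277 with limma).

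At 8 weeks of HFD Gpnmb was at 11.61, 8.91, 8.23 and 9.26 in the 8-week arrays 1 to 4 and Trem2 at 9.32, 7.03, 7.25 and 7.11. Array 1 was thus the highest for both, and it had a hepatocyte mean of 6.23, against 10.12, 10.03 and 10.06 in arrays 2 to 4. The 8-week against 4-week comparison, which shares the 4-week arrays, called 0 genes without the terms with limma and 6 with them (0.0271%). Gpnmb differed by 1.89 there with the terms (adjusted p = 0.382), against 3.29 at 12 weeks, and Tlr13 by 1.68 (adjusted p = 0.15), against 2.21. The part of liver and epididymis transcripts in the differences was not tested beyond the terms and the arrays left out. For genes that rose or fell, the side on which array 3 lay was fixed by their choice.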

How the data were processed

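RNA of gonadal fat was hybridised to Mouse Gene 2.0 ST arrays. Per the labels' design text, the authors used the Transcriptome Analysis Console 4.0.2; they deposited log2 values. How background was corrected and arrays were normalized is not given in the sources used here. Their table held 34472 clusters and 25 arrays, with array medians of 5.04 to 5.36. Clusters with 1 gene symbol (23521) were used, the brightest for each gene, which gave 22180 genes.

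Group means of all 7 groups were fitted to all 25 arrays with limma 3.58.1 in R 4.3.3, which leaves 18 residual degrees of freedom, or 16 with the hepatocyte (33 genes) and epididymis (17 genes) terms. The number of arrays limits the precision. Members, the 47 gene lists (676 of 739 genes measured) and tests were chosen with earlier results of these data known. Named genes are the largest changes (15 that rose, 12 that fell) among non-provisional genes called in both fits without overlap, up to 4 such members of each list (otherwise its member with the smallest p) and a panel of single genes; others are said to be named after their values were seen. On simulated data of 22180 genes, with 67 genes changed 1.5-fold, 67 changed 2-fold and 66 changed 4-fold, the fit without terms recovered 43.3%, 79.1% and 98.5%, with 9.82% false calls; that with terms 32.8%, 73.1% and 100%, with 6.16%; and the difference between diets 10.4%, 47.8% and 93.9%, with 1.94%. The simulated errors were independent between genes and arrays, so these rates do not cover deviations shared by many genes of an array. Alternatives are given in the closing section.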

Additional observations from a re-analysis of the deposited data

Results flagged for a closer look

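Within the 4 HFD 12-week arrays, 1 array stood apart from the other 3 in 8 of 141 sets of values. The gap to its nearest neighbour, as a share of the group's range, exceeded Dixon's critical value for 4 samples, which chance passes in about 1 of 20 groups. Array 3 was the one apart, and low, for Alb (0.980), Apoa1 (0.855), Fgb (0.889), Tat, a tyrosine-degrading liver enzyme (0.867), Clec4f (0.885) and the hepatocyte mean (0.869). Array 3 was apart and high for Themis, a T cell gene, with a share of 0.946. Array 2 was apart and high for Mir195a, with 0.922.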

How the results depend on the processing

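The count of genes called without the terms was 127. It became 5 with the compared groups alone, 84 with median centring, 254 over all clusters, 260 with array weights, 578 at an unadjusted p with a fold of at least 1.5, 213 with high and low liver transcripts as a block, 322 with the terms and 20 without arrays with liver transcripts. Leaving out each array in turn gave 4 to 175. The count with the terms was 322: 26 with the compared groups alone, 1044 at an unadjusted p with that fold, 43 without arrays with liver transcripts, 0 without those with liver or epididymis transcripts (1402 at an unadjusted p under 0.05 with limma), and 49 to 535 without single arrays. For genes called in both fits without overlap, main count 103, it was 3, 385, 20 and 0 in that order, 163 with array weights, and 4 to 153 without single arrays. For the difference between diets, 0 genes in the main setting, 510 passed at an unadjusted p with the fold, 7 without arrays with liver or epididymis transcripts, and 0 to 1 without single arrays. With the replicate block the counts were 73 without the terms, 173 with them, 51 for both and 0 for the difference between diets. The deviations of same-numbered arrays had correlations of 0.135, -0.026 and 0.202, and 2 of 3 correlated best with their own number. The numbers were not taken as pairs in the main fits, and these values do not decide whether they are pairs. The cause of each shift was not tested. Against the fit with the terms, 588 alternative values of the 27 genes with the largest rise or fall were set, 27 of them from the fit without the terms: 442 kept their call, 146 kept the direction without passing the test, and 0 reversed. These genes were chosen as called in both fits without overlap, which makes a reversal unlikely, so the absence of reversals is no check. The fit without the terms kept 62 of 189 calls of these genes with single arrays left out.

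With 4 and 3 arrays, changes below 2-fold were often not recovered in simulation. A filter on low values removed genes with a mean below the median of all clusters before testing. It left 16 lower and 79 higher among genes called in both fits without overlap. The low-signal genes among the falls were removed by it, so their loss there is no test of them.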
